A study of Mus musculus with 6 samples.

Results

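The genes described here encode the ligands, receptors, Smads, antagonists and direct targets of the bone morphogenetic protein (BMP), transforming growth factor beta (TGF-beta) and activin pathways. They were chosen by name: non-control probes named for a Bmp, Bmpr, Gdf, Tgfb, Tgfbr, Acvr, Smad, Inhb or Id gene, plus Fst, Nog, Grem1 and Chrd. This gave 85 of the 41174 probes on the array, which stand for 57 of 28030 genes. Of the 57, 44 were well above background on both arrays of at least 1 gate and were tested, and 27 of these were so on all 6 arrays. The other 13 were not tested.

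Epithelial cells of the thymic stroma (TEC), on which developing T cells depend for their selection, were sorted from the thymus of 4-week-old C57BL/6 mice. All animals carried Tg(Meis1-EGFP)FO156Gsat/Mmcd, a bacterial artificial chromosome from which Meis1 regulatory sequence drives EGFP. Sorted cells lacked CD45, the leukocyte surface marker, and carried EpCAM, an epithelial adhesion molecule. Small cells with bright EGFP (EGFPhigh FSClow) made up Meis1-high, and large cells with intermediate EGFP (EGFPint FSChigh) made up Meis1-low. Small cells that lacked EGFP (EGFP- FSClow) made up Meis1-negative. FSC is forward scatter, a measure of cell size. Each gate had 2 samples, each a pool of 6 mice, so the spread is that between pools and not between animals. The 2 samples of a gate also differed in slide and scan day, and the spread holds these too. All groups share the transgene, strain and age, and reporter level and cell size cannot be told apart between Meis1-high and Meis1-low. The reporter is a transgene, so the gates sort on EGFP and not on Meis1 protein.

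In this family, secreted dimeric ligands bring together type I and type II serine/threonine kinase receptors, which phosphorylate receptor-regulated Smad proteins. BMP and several GDF ligands act mostly through Smad1, Smad5 and Smad9, and TGF-beta and activin through Smad2 and Smad3, with Smad4 as the partner common to all and Smad6 and Smad7 as inhibitors. The Id genes, which encode inhibitors of basic helix-loop-helix transcription factors, are direct BMP targets in many cell types. BMP4 from thymic mesenchyme and endothelium is known to act on TEC, and TGF-beta receptor signalling is known to restrain medullary TEC.

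Levels below are log2 signals relative to the 75th percentile of the same array, and differences are log2 differences between gate means. A probe counted as well above background where the scanner software marked it so. The 75th percentile of the signal ran from 70.1 to 158.3 over the 6 arrays, and 53.1% to 69.6% of spots were well above background. Replicate 1 of every gate was hybridised on slide 1 and replicate 2 on slide 2. Meis1, the check of the gates, had levels of 0.30 and 0.17 in Meis1-high cells, -2.27 and -1.54 in Meis1-low, against -3.17 and -0.93 in Meis1-negative. Its difference was 2.14 ± 0.84 (SE, n = 2 per gate; adjusted p = 0.359) from Meis1-low and 2.29 ± 0.84 (adjusted p = 0.426; 1.17 without Meis1-negative replicate 1) from Meis1-negative.

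Meis1-negative replicate 1 stood apart from the other arrays. Its mean level over 15 thymocyte and T cell markers was 3.14, against -0.28 on Meis1-negative replicate 2 and -1.95 to -1.50 on the other 4 arrays, and the summed scaled signal of these markers was 1195 against 27.6 and 9.43 to 14.8. Over 10 epithelial markers, all well above background on every array, its mean level was 1.31, against 3.41 to 3.89 elsewhere. The part of this array in each result was not tested, and most differences from Meis1-negative are therefore given with and without it. In pooled cells, fewer cells of a type and less RNA per cell cannot be told apart.

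No gene passed an adjusted p under 0.05 (Benjamini-Hochberg over all 18219 genes tested, limma) in any comparison, so 0.0% were called, and every difference below is a measured value and not a call. The smallest adjusted p of any of the signalling genes in a moderated F test over the 3 gates was 0.288. At an unadjusted p under 0.05 that test took in 10 of the 44 genes, against 11.4% of the 18219.

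Between Meis1-high and Meis1-low, the direction of the measured differences varied with role, and none passed the test. In Meis1-high, 9 of 10 receptors, all 4 Id genes and 3 of 4 secreted antagonists were higher (2 of 4 antagonists with normexp background correction, an alternative to the scanner software's subtraction). In Meis1-low, 9 of 13 BMP and GDF ligands were higher. Of these ligands, Gdf10, Bmp5, Gdf3 and Gdf15 were tested only because both Meis1-low arrays were well above background. The antagonist genes Fst and Nog were tested only through Meis1-high. The filter thus largely set the side of these genes. Of the 44 genes, 26 were higher in Meis1-high and 18 lower, with a median difference of 0.31 against -0.16 over all genes tested. At an unadjusted p under 0.05, 5 were higher and 6 lower, 25% of the 44 against 12.9% of all genes (4.58% higher and 8.34% lower). The 2 arrays of one gate lay wholly above those of the other for 79.5% of the signalling genes and 53.7% of all genes (22.2% higher and 31.4% lower). With no filter on background the 57 genes gave 24.6% at an unadjusted p under 0.05, against 10.4% of all 28030 genes. Among genes well above background on all 6 arrays, the median difference was 0.62 over the 27 signalling genes and -0.09 over all 12405.

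Between Meis1-high and Meis1-negative, 31 of the 44 genes were higher in Meis1-high and 13 lower, with a median of 0.51 against -0.08 over all genes. Arrays of these gates did not overlap for 45.5% of the signalling genes and 39.2% of all genes (19.5% higher and 19.7% lower). At an unadjusted p under 0.05, 10 were higher and 2 lower, 27.3% against a background of 10.5% (5.72% higher and 4.75% lower). Without Meis1-negative replicate 1 the split was 25 to 19 with a median of 0.17, and 1 gene was higher and 2 lower at an unadjusted p under 0.05, against 8.39% of all genes. Without Meis1-negative replicate 2 the median was 1.23, and Bmp7, Bmpr1b and Id1 passed an adjusted p under 0.05, as did 5.41% of all genes. In that fit the lone Meis1-negative array was assumed to vary like the other gates.

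Between Meis1-low and Meis1-negative, 28 of the 44 genes were higher in Meis1-low and 16 lower, with a median of 0.47 against 0.08 over all genes. At an unadjusted p under 0.05, 5 were higher and 2 lower, 15.9% against a background of 8.19% (5.23% higher and 2.96% lower). Gates did not overlap for 43.2% of the signalling genes, a share near the 39.2% of all genes (24.2% higher and 15.0% lower). Without Meis1-negative replicate 1 the median was 0.09, with 2 higher and 5 lower at an unadjusted p under 0.05 against 3.45% of all genes. Without Meis1-negative replicate 2 it was 1.05, and Bmp2, Bmp3, Bmpr1b, Grem1 and Tgfb2 passed an adjusted p under 0.05 with 7.39% of all genes. The 3 comparisons share their arrays in pairs and are not independent of each other.

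**Figure D1:**
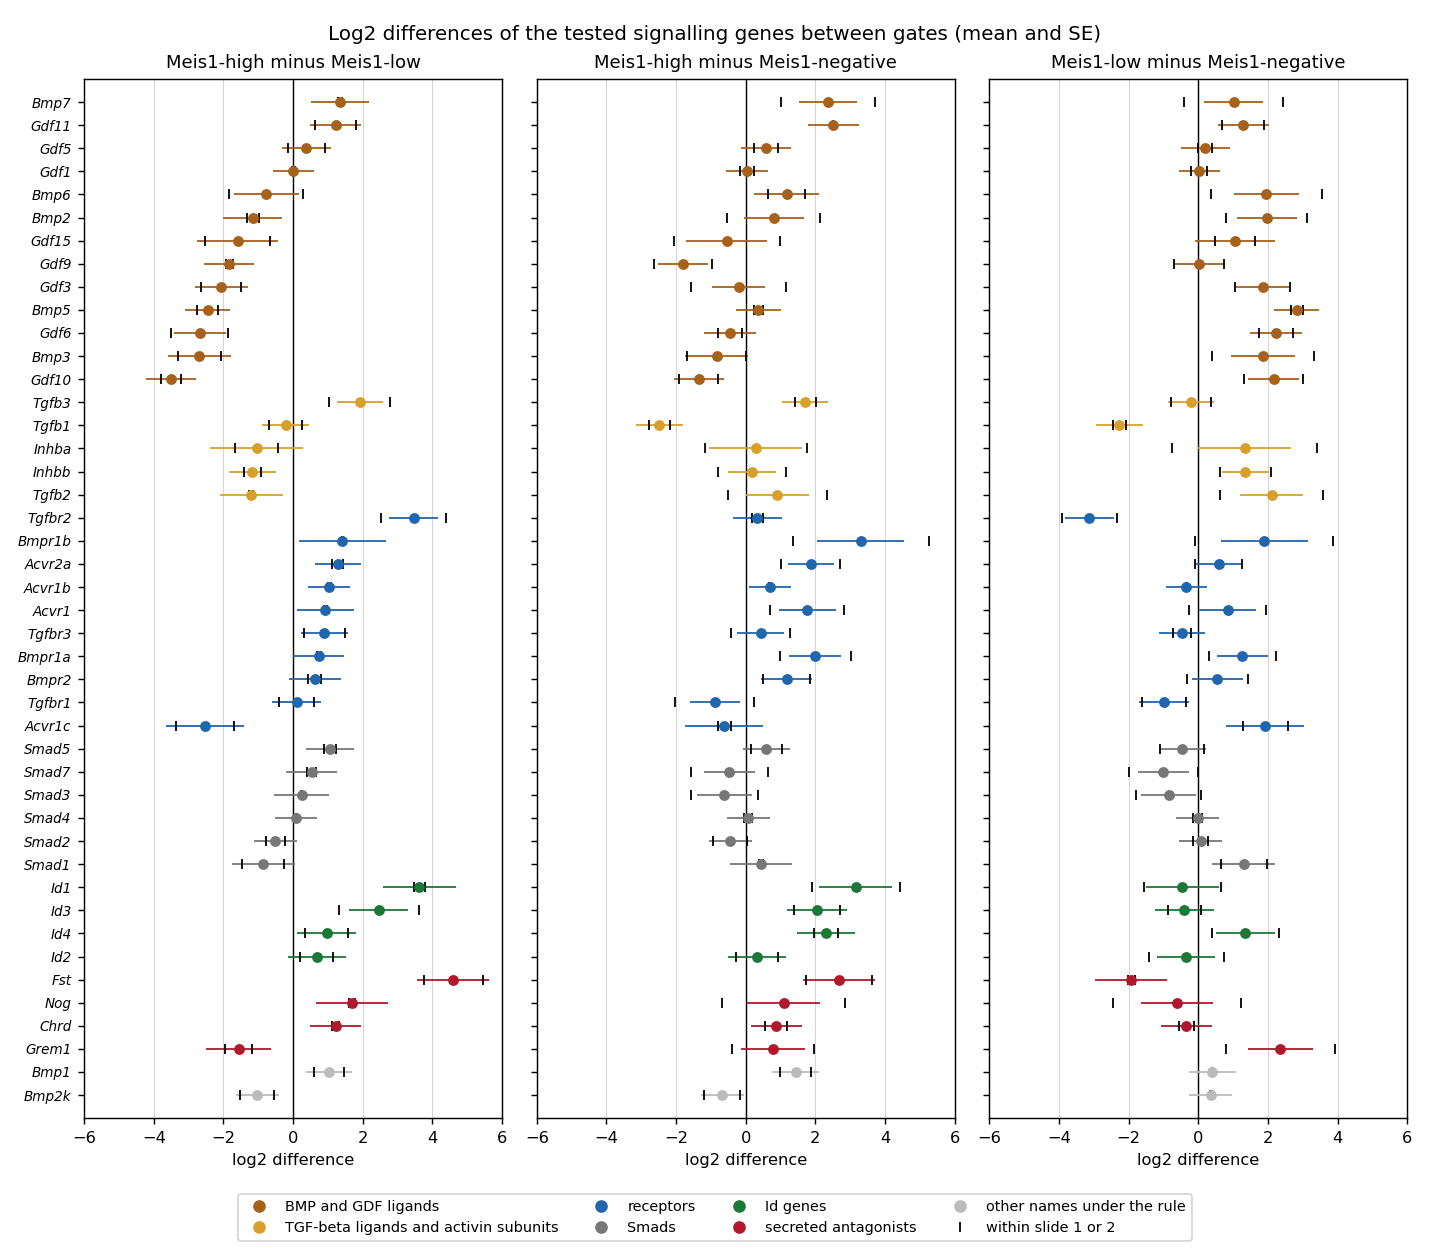
Log2 differences of the 44 tested signalling genes in the 3 comparisons (one panel each), as the mean (point) with its SE (bar, n = 2 arrays per gate) and the differences within slide 1 and slide 2 (ticks), coloured by role. For genes dim on both arrays of a gate, such as Fst and Gdf10, points are fitted values and the text gives bounds. In the left panel the 4 Id genes lie right of 0 and 9 of the 13 BMP and GDF ligands lie left of it. Of these ligands, Gdf10, Bmp5, Gdf3 and Gdf15 were tested only through Meis1-low. No difference passed an adjusted p under 0.05.

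The BMP and GDF ligands are secreted growth factors of the family, of which 13 of 20 genes were tested. Against Meis1-high, 9 of the 13 were higher in Meis1-low, 8 of them with no overlap between gates (31.4% of all genes). The median difference was -1.60, or -0.65 with signals raised to the lowest signal well above background on each array and -0.39 with normexp correction. All 13 were higher in Meis1-low than in Meis1-negative (11 of 13 with median scaling), 8 without overlap (24.2% of all genes). The median there was 1.85, or 1.02 with signals so raised and 0.68 with normexp correction. Without Meis1-negative replicate 1, 10 of the 13 were higher in Meis1-low and the median was 0.77. Gdf10, Bmp5, Gdf3 and Gdf15 were tested only because both Meis1-low arrays were well above background. Their side in these counts was largely set by that filter.

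Gdf10 (also named Bmp3b) had levels of -1.54 and -2.96 in Meis1-low, -5.34 and -6.18 in Meis1-high, with -4.55 and -4.27 in Meis1-negative. It was well above background only on the Meis1-low arrays, which held at least 2.48-fold more signal than Meis1-high (adjusted p = 0.254) and at least 3.26-fold more than Meis1-negative (adjusted p = 0.601; 4.00-fold without Meis1-negative replicate 1). These are lower bounds, set by the lowest signal well above background on each dim array. They rest on the scanner software's subtraction, and with normexp correction the difference of Meis1-high from Meis1-low was -0.73. On its tested probe Bmp5, a ligand of early skeletal development, had the same pattern of detection. Its levels were -2.97 and -3.23 in Meis1-low, -5.13 and -5.99 in Meis1-high, with -5.62 and -6.24 in Meis1-negative. Of its other probes, which did not pass the filter, A_51_P353264 was dim on every array. A_51_P516637 was well above background only on Meis1-low replicate 2. On the tested Bmp5 probe the signal in Meis1-low was at least 1.37-fold that in Meis1-high (adjusted p = 0.258). It was at least 1.80-fold that in Meis1-negative (adjusted p = 0.403; 2.21-fold without Meis1-negative replicate 1). Gdf3, a ligand of early embryos and pluripotent cells, was likewise well above background only in Meis1-low, at -3.24 and -3.60, with bounds of 1.10-fold over Meis1-high (adjusted p = 0.338) and 1.45-fold over Meis1-negative (adjusted p = 0.601; 1.77-fold without Meis1-negative replicate 1).

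Gdf6, a ligand needed for joint and eye formation, had levels of -0.31 and -0.36 in Meis1-low, -3.81 and -2.23 in Meis1-high, with -3.02 and -2.12 in Meis1-negative. The Meis1-low arrays lay above the other 4, and Meis1-high replicate 1 was dim. The difference of Meis1-high from Meis1-low was -2.68 ± 0.75 (adjusted p = 0.260), and that of Meis1-low from Meis1-negative was 2.23 ± 0.75 (adjusted p = 0.601; 1.78 without Meis1-negative replicate 1). Bmp3, an atypical ligand that opposes osteogenic BMPs, had levels of 1.42 and 1.05 in Meis1-low, -1.88 and -1.03 in Meis1-high, against -1.89 and 0.66 in Meis1-negative. It was lower in Meis1-high than in Meis1-low by -2.69 ± 0.91 (adjusted p = 0.307), without overlap, with one Meis1-negative array level with Meis1-high and the other between those gates. Against Meis1-negative its difference in Meis1-low was 1.85 ± 0.91 (adjusted p = 0.601), and 0.58 without Meis1-negative replicate 1.

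Bmp2, a classical osteogenic BMP, had levels of 0.09 and 0.15 in Meis1-low, -0.90 and -1.18 in Meis1-high, with -3.05 and -0.65 in Meis1-negative. Meis1-low was above every array of the other gates. The differences were -1.16 ± 0.85 for Meis1-high against Meis1-low (adjusted p = 0.615) and 1.97 ± 0.85 for Meis1-low against Meis1-negative (adjusted p = 0.601; 0.77 without Meis1-negative replicate 1). Gdf9, the oocyte-derived factor, was dim on both Meis1-high arrays and well above background on the other 4. Its signal was at least 1.57-fold higher in Meis1-low than in Meis1-high (adjusted p = 0.358) and at least 1.54-fold higher in Meis1-negative than in Meis1-high (adjusted p = 0.452; 1.33-fold without Meis1-negative replicate 1). With normexp correction Meis1-high differed by -0.39 from Meis1-low and by -0.027 from Meis1-negative.

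Bmp7 and Gdf11 ran the other way. Bmp7, which acts in kidney and eye development, had levels of 0.78 and 0.28 in Meis1-high cells, -0.51 and -1.13 in Meis1-low, against -2.94 and -0.73 in Meis1-negative. Meis1-high lay above the other 4 arrays, by 1.35 ± 0.84 over Meis1-low (adjusted p = 0.552) and 2.37 ± 0.84 over Meis1-negative (adjusted p = 0.412; 1.26 without Meis1-negative replicate 1). Gdf11, a regulator of axial patterning, had levels of -0.57 and -1.82 in Meis1-high cells, -2.39 and -2.44 in Meis1-low, with -3.08 and -4.34 in Meis1-negative. Its 3 gates did not overlap and were in that order, with Meis1-negative replicate 2 dim. The difference from Meis1-negative was 2.51 ± 0.74 (adjusted p = 0.350), and 3.14 without Meis1-negative replicate 1, and that from Meis1-low was 1.22 ± 0.74 (adjusted p = 0.538).

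Gdf1, Gdf5 and Bmp6 overlapped between Meis1-high and Meis1-low. Gdf15, a ligand induced by cell stress, differed there by -1.60 ± 1.16 without overlap (adjusted p = 0.612), with Meis1-high replicate 1 dim. Bmp6, a ligand linked to iron regulation in liver, was 1.95 ± 0.93 higher in Meis1-low than in Meis1-negative (adjusted p = 0.601), and 0.79 without Meis1-negative replicate 1, which was dim. Bmp4 was not tested: its levels were -3.17 and -2.78 in Meis1-high cells, -4.53 and -3.18 in Meis1-low, against -4.48 and -2.98 in Meis1-negative, and it was well above background only on the 3 arrays of slide 2. Of the other ligands left out, Bmp10, Bmp8a, Bmp8b, Gdf2 and Gdf7 were dim on every array, and Bmp15 was well above background on 1.

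**Figure D2:**
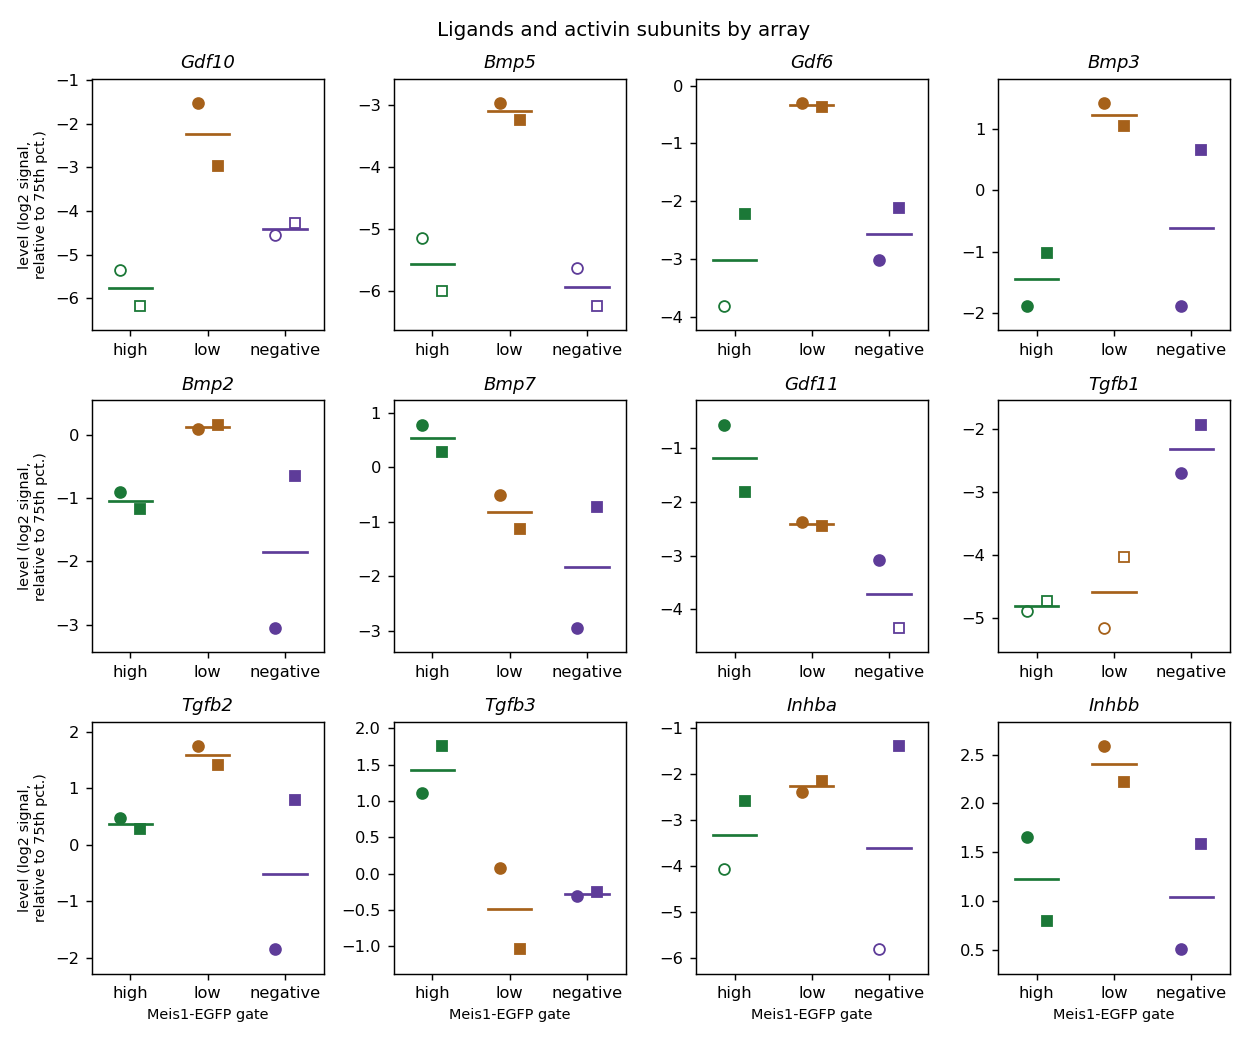
Level (log2 signal relative to the 75th percentile of the array) of 12 ligand and activin subunit genes in each gate. Circles are slide 1, squares are slide 2, open symbols are not well above background and lines are gate means; Gdf10, Bmp5 and Gdf6 are highest on the Meis1-low arrays, and Tgfb1 is well above background only in Meis1-negative.

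The TGF-beta ligands differed from each other. Tgfb1, the isoform typical of immune cells, had levels of -2.70 and -1.94 in Meis1-negative, -4.88 and -4.72 in Meis1-high, with -5.15 and -4.03 in Meis1-low. It was well above background only in Meis1-negative and was tested only for that reason, so the filter largely set its side. Its signal there was at least 2.36-fold over Meis1-high (adjusted p = 0.335) and at least 3.50-fold over Meis1-low (adjusted p = 0.601). Without Meis1-negative replicate 1 these bounds were 3.07-fold and 4.55-fold. With normexp background correction the difference of Meis1-low from Meis1-negative was 0.060, on the other side of 0. That of Meis1-high from Meis1-negative was then -0.16. Leukocyte markers were also highest in Meis1-negative. The summed scaled signal of 8 pan-leukocyte markers was 107 and 64.1 there, against 19.9 and 15.9 in Meis1-high cells and 48.0 and 44.3 in Meis1-low. All 8 were lower in Meis1-high than in Meis1-negative without overlap, as were 19.7% of all genes. The summed signal of the thymocyte and T cell markers was 1195 and 27.6 in Meis1-negative. The part of such cells in the Tgfb1 signal was not tested.

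Tgfb2, an isoform of mesenchymal and epithelial tissues, had levels of 1.74 and 1.42 in Meis1-low, 0.47 and 0.28 in Meis1-high, against -1.85 and 0.80 in Meis1-negative. Meis1-low lay above the other 4 arrays, and its difference from Meis1-negative was 2.11 ± 0.91 (adjusted p = 0.601; 0.78 without Meis1-negative replicate 1). The difference of Meis1-high from Meis1-low was -1.20 ± 0.91 (adjusted p = 0.624). Tgfb3, the isoform needed for palate fusion, was higher in Meis1-high than in Meis1-low, with 1.11 and 1.75 in Meis1-high cells, 0.07 and -1.04 in Meis1-low, with -0.31 and -0.26 in Meis1-negative. Meis1-high was above the other arrays by 1.91 ± 0.66 over Meis1-low (adjusted p = 0.312) and 1.71 ± 0.66 over Meis1-negative (adjusted p = 0.443; 1.69 without Meis1-negative replicate 1).

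Activins are dimers of inhibin beta subunits. Inhbb, one such subunit, was 1.35 ± 0.68 higher in Meis1-low than in Meis1-negative (adjusted p = 0.601; 0.81 without Meis1-negative replicate 1), and the difference of Meis1-high from Meis1-low was -1.17 ± 0.68 (adjusted p = 0.523). Inhba, the subunit of activin A, had levels of -4.05 and -2.59 in Meis1-high cells, -2.39 and -2.16 in Meis1-low, against -5.80 and -1.41 in Meis1-negative. The Meis1-negative pair spanned the other 4 arrays, and replicate 1 was dim in Meis1-high and Meis1-negative. Inhba was thus tested only through Meis1-low, and that filter favoured a higher level there. The difference of Meis1-low from Meis1-negative was 1.33 ± 1.34 (adjusted p = 0.783) and turned to -0.87 without Meis1-negative replicate 1. Inhbc was dim on every array, and Inhbe was dim on all but 1, an array of Meis1-low.

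The secreted antagonists bind ligands and keep them from their receptors, and 3 of the 4 were higher in Meis1-high than in Meis1-low (2 of 4 with normexp background correction). Fst and Nog were tested only because both Meis1-high arrays were well above background, so the filter largely set their side. Fst encodes follistatin, which traps activins and some BMPs, and had levels of -1.05 and -0.55 in Meis1-high cells, -6.49 and -4.30 in Meis1-low, with -4.66 and -2.27 in Meis1-negative. Both Meis1-high arrays lay above all others, and both Meis1-low arrays and Meis1-negative replicate 1 were dim. The Meis1-high signal was at least 10.3-fold higher than in Meis1-low (adjusted p = 0.258), and its difference from Meis1-negative was 2.67 ± 1.03 (adjusted p = 0.442; 1.47 without Meis1-negative replicate 1). With normexp background correction the difference from Meis1-low was 0.85, smaller than that bound. With its single probe, Fst rests on one oligonucleotide, whose first 30 bases were as follows.

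Fst, A_51_P381821: gatccattggattagcctatgagggaaagt

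The file headers place this probe on mm9 at chr13:115244692-115245364, a span longer than its 60 bases, and its exon was not annotated here. Grem1, which encodes the BMP antagonist gremlin 1, had levels of 1.84 and 1.44 in Meis1-low, -0.11 and 0.26 in Meis1-high, against -2.08 and 0.65 in Meis1-negative. It was the antagonist highest in Meis1-low, where it lay above the other 4 arrays. The difference of Meis1-high from Meis1-low was -1.57 ± 0.93 (adjusted p = 0.528), and that of Meis1-low from Meis1-negative was 2.36 ± 0.93 (adjusted p = 0.601; 0.99 without Meis1-negative replicate 1).

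Nog, which encodes the BMP antagonist noggin, had levels of -2.61 and -2.88 in Meis1-high cells, -4.22 and -4.64 in Meis1-low, with -5.46 and -2.20 in Meis1-negative. It was dim on both Meis1-low arrays and on Meis1-negative replicate 1. The Meis1-high signal was at least 2.68-fold that in Meis1-low (adjusted p = 0.545), and with normexp background correction the difference was -0.060. Chrd, which encodes the BMP-binding protein chordin, was 1.22 ± 0.73 higher in Meis1-high than in Meis1-low without overlap (adjusted p = 0.532).

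**Figure D3:**
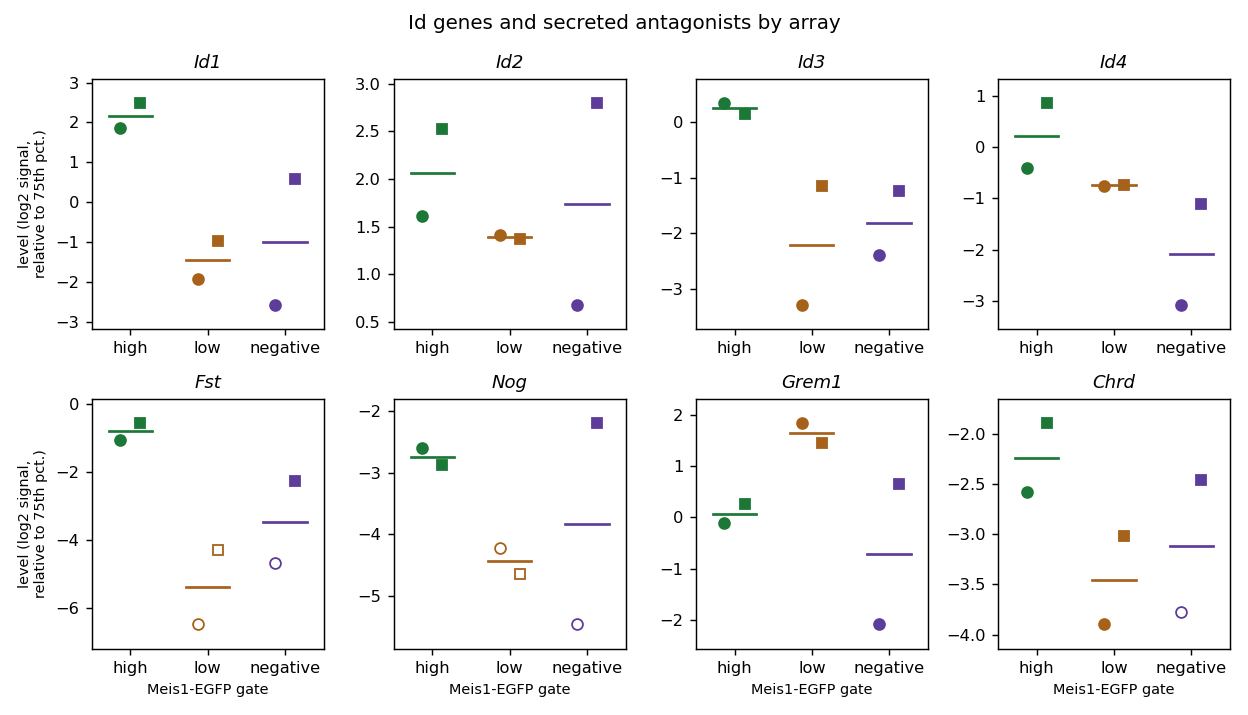
Level (log2 signal relative to the 75th percentile of the array) of the 4 Id genes and 4 secreted antagonists in each gate. Circles are slide 1, squares are slide 2, open symbols are not well above background and lines are gate means; Id1, Id3 and Fst have both Meis1-high arrays above the other 4, and Grem1 has both Meis1-low arrays above the rest.

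Of the 12 receptor genes, 10 were tested. In Meis1-high, 9 of the 10 were higher than in Meis1-low, 8 without overlap (22.2% of all genes), with a median difference of 0.91. Against Meis1-negative, 8 of the 10 were higher in Meis1-high, 7 without overlap (19.5% of all genes), with a median of 0.93. Without Meis1-negative replicate 1 the latter count was again 8 of 10, with a median of 0.78. At an unadjusted p under 0.05, 1 receptor was higher in Meis1-high than in Meis1-low (10% of receptors, against 12.9% of all genes) and 3 than in Meis1-negative (30% against 10.5%), or 0 without Meis1-negative replicate 1.

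Tgfbr2, the type II receptor that binds TGF-beta ligands, had levels of 0.30 and -0.04 in Meis1-high cells, -4.10 and -2.57 in Meis1-low, against -0.19 and -0.22 in Meis1-negative. Both Meis1-low arrays were below the other 4, and Meis1-low replicate 1 was not well above background. Meis1-high differed from Meis1-low by 3.47 ± 0.70 (adjusted p = 0.254), with 4.40 within slide 1, which rests on that dim array, and 2.53 within slide 2. With normexp correction the difference was 1.11. Meis1-low differed from Meis1-negative by -3.13 ± 0.70 (adjusted p = 0.403; -3.11 without Meis1-negative replicate 1 and -0.87 with normexp correction). The difference of Meis1-high from Meis1-negative was 0.34 ± 0.70 (adjusted p = 0.882; 0.35 without Meis1-negative replicate 1).

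Of the 3 Tgfbr2 probes, all were lower in Meis1-low than in Meis1-high, but they disagreed on Meis1-negative. The second probe, A_52_P251403, had levels of -0.91 and -2.96 in Meis1-high cells, -3.45 and -4.39 in Meis1-low, with -2.22 and -4.69 in Meis1-negative. The third, A_52_P3811, had -5.26 and -3.12 in Meis1-high cells, -6.25 and -6.24 in Meis1-low, against -2.32 and -1.80 in Meis1-negative. Meis1-high lay above Meis1-negative by 1.52 on the second probe and below it on the third, at -2.13. The second probe passed the filter only through Meis1-high, with replicate 2 of the other gates dim. The third passed only through Meis1-negative, with both Meis1-low arrays and Meis1-high replicate 1 dim. The filter thus largely set the side of each. The first 30 bases of each probe, which set apart the 3 places on mm9 where the gene was read, were as follows.

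Tgfbr2, A_51_P450573, chr9:115997155-115997214: tctagcggggaatttacagaatgctggtcc
Tgfbr2, A_52_P251403, chr9:116019196-116019255: gaagctgatggatttcagtgacaactgcgc
Tgfbr2, A_52_P3811, chr9:116039845-116039904: ctgaagcataaaccactcctattttttctg

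Among BMP type I receptors, Bmpr1a had levels of 3.23 and 2.97 in Meis1-high cells, 2.44 and 2.30 in Meis1-low, with 0.22 and 1.99 in Meis1-negative. The 3 gates did not overlap. Meis1-high was 0.73 ± 0.74 above Meis1-low (adjusted p = 0.721) and 2.00 ± 0.74 above Meis1-negative (adjusted p = 0.427; 1.11 without Meis1-negative replicate 1). Bmpr1b, the second receptor of this type, had levels of -0.45 and -0.16 in Meis1-high cells, -1.85 and -1.59 in Meis1-low, against -5.71 and -1.50 in Meis1-negative. Meis1-high lay above the other 4 arrays, and Meis1-negative replicate 1 was dim. The differences were 1.41 ± 1.25 from Meis1-low (adjusted p = 0.680) and 3.30 ± 1.25 from Meis1-negative (adjusted p = 0.436; 1.20 without Meis1-negative replicate 1).

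Among type II receptors, Acvr2a, which binds activins and several BMPs, had levels of 1.34 and 0.63 in Meis1-high cells, -0.10 and -0.48 in Meis1-low, with -1.36 and -0.39 in Meis1-negative. Meis1-high was again above the other 4 arrays. It was 1.28 ± 0.66 above Meis1-low (adjusted p = 0.473) and 1.86 ± 0.66 above Meis1-negative (adjusted p = 0.412; 1.38 without Meis1-negative replicate 1). Its 3 probes disagreed on the latter difference, which ran from -0.11 to 1.86, and all were higher in Meis1-high than in Meis1-low. Bmpr2, the BMP type II receptor, had levels of 2.57 and 2.98 in Meis1-high cells, 2.13 and 2.17 in Meis1-low, against 0.72 and 2.48 in Meis1-negative. Meis1-high lay above all other arrays, by 0.62 ± 0.74 over Meis1-low (adjusted p = 0.762) and 1.17 ± 0.74 over Meis1-negative (adjusted p = 0.640; 0.29 without Meis1-negative replicate 1).

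Tgfbr1, the type I receptor that pairs with Tgfbr2, had levels of 1.07 and 1.96 in Meis1-high cells, 1.48 and 1.36 in Meis1-low, with 3.1 and 1.72 in Meis1-negative. On this tested probe the gates overlapped between Meis1-high and Meis1-low. Meis1-low differed from Meis1-negative by -0.99 ± 0.72 (adjusted p = 0.683; -0.30 without Meis1-negative replicate 1). The other Tgfbr1 probe lay 0.89 higher in Meis1-high than in Meis1-low, without overlap. The activin receptor genes Acvr1 and Acvr1b and the co-receptor gene Tgfbr3 were higher in Meis1-high than in Meis1-low by 0.90 to 1.03, without overlap, at adjusted p values of 0.523 to 0.680. Acvr1c, a type I receptor for nodal and some activins, was the receptor lower in Meis1-high, by -2.54 ± 1.12 (adjusted p = 0.403), with Meis1-high replicate 1 dim. Its 3 probes that passed the filter disagreed, at -2.54, -2.15 and 0.77. The probes at -2.54 and -2.15 passed only through Meis1-low, so the filter largely set their side. The probe at 0.77 was well above background on both arrays of Meis1-high and of Meis1-low. Acvr2b was dim on every array, and Acvrl1 was well above background on 2.

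**Figure D4:**
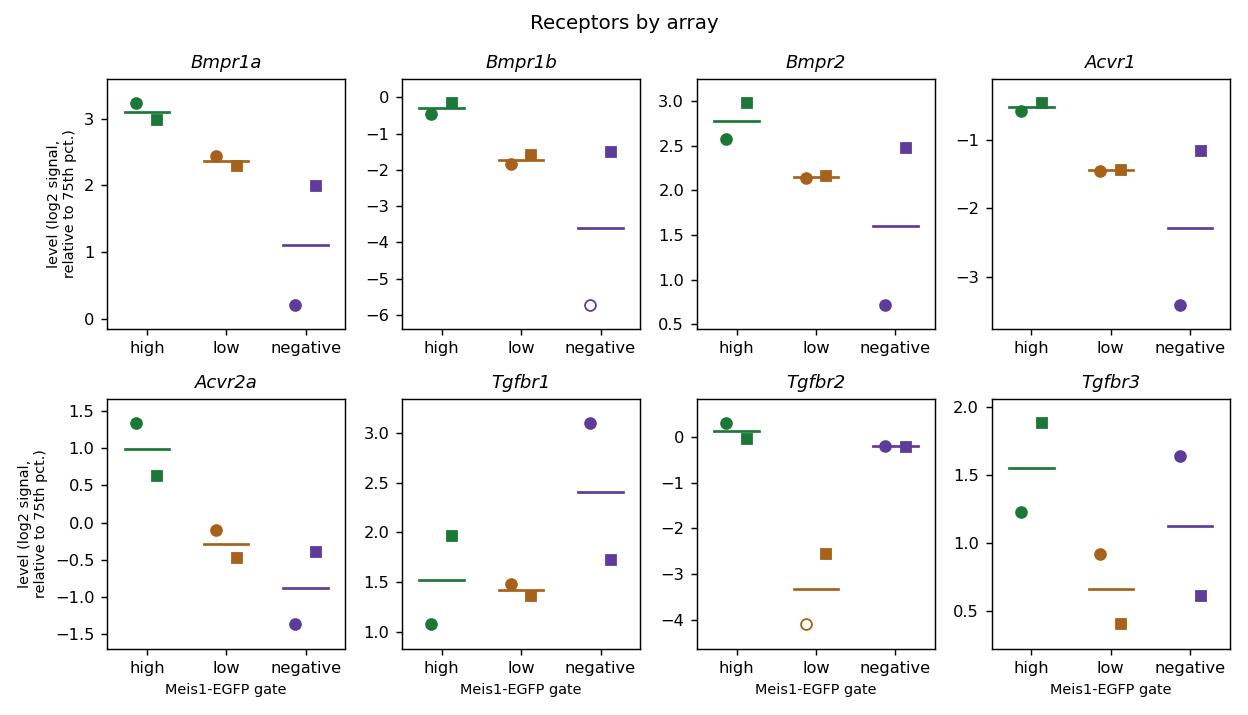
Level (log2 signal relative to the 75th percentile of the array) of 8 receptor genes in each gate. Circles are slide 1, squares are slide 2, open symbols are not well above background and lines are gate means; both Meis1-low arrays of Tgfbr2 lie below the other 4, and the Meis1-high arrays of Bmpr1a, Bmpr1b, Bmpr2 and Acvr2a lie above the rest.

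The Smads carry the signal to the nucleus, and 6 of the 8 were tested. Their median difference was 0.16 between Meis1-high and Meis1-low. Against Meis1-negative it was -0.19 for Meis1-high and -0.24 for Meis1-low, and these turned to 0.15 and 0.16 without Meis1-negative replicate 1. Gates did not overlap for 33.3% of the 6 between Meis1-high and Meis1-low, against 53.7% of all genes. The shares were 0% and 33.3% in the comparisons of Meis1-high and Meis1-low with Meis1-negative, against 39.2% of all genes in each. None reached an unadjusted p under 0.05 in any of the 3 comparisons. Smad1, a BMP-regulated Smad, had levels of 0.74 and 2.51 in Meis1-high cells, 2.20 and 2.77 in Meis1-low, against 0.24 and 2.13 in Meis1-negative. In each gate the slide 2 array was the higher on this tested probe. Its difference between Meis1-low and Meis1-negative was 1.30 ± 0.90 (adjusted p = 0.669; 0.36 without Meis1-negative replicate 1). On the other Smad1 probe that difference was 0.058, and the slide 1 array was the higher in Meis1-high.

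Smad3, regulated by TGF-beta and activin, had levels of -0.57 and -0.70 in Meis1-high cells, -0.79 and -0.96 in Meis1-low, with 1.01 and -1.05 in Meis1-negative. Only Meis1-negative replicate 1 stood away from the other arrays. The difference of Meis1-low from Meis1-negative was -0.86 ± 0.79 (adjusted p = 0.758), and 0.17 without that array. The inhibitory Smad7 had levels of -0.38 and 0.75 in Meis1-high cells, -0.79 and 0.10 in Meis1-low, against 1.20 and 0.11 in Meis1-negative. Meis1-low lay below Meis1-negative with a difference of -1.99 on slide 1 and -0.013 on slide 2 (adjusted p = 0.691; -0.46 without Meis1-negative replicate 1). Smad5, a BMP-regulated Smad, was 1.06 ± 0.68 higher in Meis1-high than in Meis1-low without overlap (adjusted p = 0.564). The inhibitory Smad6 was not tested, with levels of -4.40 and -3.12 in Meis1-high cells, -5.73 and -4.12 in Meis1-low, with -5.44 and -3.37 in Meis1-negative, and was well above background on 2 arrays. Smad9 was not so on any. The tested probe of Smad4 lay between 4.00 and 4.65 over the 6 arrays and that of Smad2 between 0.18 and 1.26, and the gates overlapped in all 3 comparisons for both genes.

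The genes Bmp1 and Bmp2k fall under the name rule without being ligands or receptors. Bmp1, which encodes a metalloproteinase that cleaves procollagen and chordin, had levels of -0.49 and -0.43 in Meis1-high cells, -1.96 and -1.02 in Meis1-low, with -2.36 and -1.43 in Meis1-negative. Both Meis1-high arrays lay above the others. Bmp2k, a kinase gene named for its induction by Bmp2, had levels of -0.41 and -0.89 in Meis1-high cells, 0.13 and 0.64 in Meis1-low, with -0.26 and 0.31 in Meis1-negative on its tested probe. On all 3 of its probes both Meis1-high arrays lay below both Meis1-low arrays, and only on the tested probe did they also lie below both Meis1-negative arrays. Neither gene passed the test in any comparison.

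The 4 Id genes were all higher in Meis1-high than in Meis1-low, and all without overlap (22.2% of all genes), with a median difference of 1.71. Against Meis1-negative all 4 were higher in Meis1-high too, 3 without overlap (19.5% of all genes), with a median of 2.18. Without Meis1-negative replicate 1, 3 of the 4 were higher and the median was 1.40. Between Meis1-low and Meis1-negative, 1 was higher and 3 lower, with a median of -0.38. That median was -1.19 without Meis1-negative replicate 1 and 0.91, with all 4 higher, without Meis1-negative replicate 2. With normexp correction the Id medians of the first 2 comparisons were 1.02 and 1.26.

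Id1 had levels of 1.85 and 2.49 in Meis1-high cells, -1.92 and -0.98 in Meis1-low, against -2.57 and 0.58 in Meis1-negative. Both Meis1-high arrays were above the other 4, and the Meis1-negative arrays lay on either side of the Meis1-low pair. Meis1-high differed from Meis1-low by 3.62 ± 1.05 (adjusted p = 0.270), with 3.78 and 3.47 within the slides, and from Meis1-negative by 3.16 ± 1.05 (adjusted p = 0.389; 1.59 without Meis1-negative replicate 1). With normexp background correction, Id1 was the only one of the 44 genes to pass an adjusted p under 0.05, in these 2 comparisons (2.28, adjusted p = 0.00815, and 2.02, adjusted p = 0.0226). Of all 18219 genes, 237 and 308 passed in them with that correction.

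The second Id1 probe gave differences of 3.63 and 3.38 in the same comparisons. It overlaps the first on mm9, so the probes are not independent readings. Their first 30 bases are shown because the capitals mark the 20 bases that both hold there.

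Id1, A_51_P385786, chr2:152563036-152563095: gaggaaatatTTTGTATTGTATATTACAAT
Id1, A_52_P533809, chr2:152563046-152563105: TTTGTATTGTATATTACAATgatcactggc

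Id3 had levels of 0.33 and 0.14 in Meis1-high cells, -3.27 and -1.16 in Meis1-low, with -2.39 and -1.24 in Meis1-negative. Meis1-high again lay above the other 4 arrays. The difference from Meis1-low was 2.45 ± 0.85 (adjusted p = 0.312) and from Meis1-negative 2.05 ± 0.85 (adjusted p = 0.467; 1.47 without Meis1-negative replicate 1). The single Id3 probe, at chr4:135700075-135700249 on mm9, opened with these bases.

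Id3, A_51_P380178: tccgcatctcccgatccagacagctgagct

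Id4 had levels of -0.42 and 0.86 in Meis1-high cells, -0.75 and -0.73 in Meis1-low, against -3.07 and -1.11 in Meis1-negative. The 3 gates did not overlap. Its difference was 0.96 ± 0.84 from Meis1-low (adjusted p = 0.676) and 2.31 ± 0.84 from Meis1-negative (adjusted p = 0.419; 1.33 without Meis1-negative replicate 1). Id2 had levels of 1.62 and 2.52 in Meis1-high cells, 1.41 and 1.37 in Meis1-low, with 0.68 and 2.80 in Meis1-negative. The Meis1-negative pair spanned the other arrays. Id2 differed by 0.68 ± 0.83 from Meis1-low (adjusted p = 0.769) and by 0.33 ± 0.83 from Meis1-negative (adjusted p = 0.903), and the latter turned to -0.73 without Meis1-negative replicate 1.

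As the Id genes were higher together in Meis1-high, the 250 bases before the start of Id2, Id3 and Id4 (RefSeq, GRCm38.p6) were searched for 2 Smad motifs known from BMP and TGF-beta targets. These were GGCGCC, which reads the same on both strands, and CAGAC on either strand. They share no overlap in these windows. Capitals mark the matches, and a match is only a run of letters. The windows are chr12:25096093-25096342 on the minus strand for Id2, chr4:136143572-136143821 on the plus strand for Id3, and chr13:48260866-48261115 on the plus strand for Id4.

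Id2: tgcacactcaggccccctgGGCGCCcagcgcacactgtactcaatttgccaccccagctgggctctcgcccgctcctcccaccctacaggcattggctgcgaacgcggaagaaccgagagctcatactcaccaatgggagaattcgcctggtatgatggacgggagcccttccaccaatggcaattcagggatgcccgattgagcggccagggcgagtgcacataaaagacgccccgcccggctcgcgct
Id3: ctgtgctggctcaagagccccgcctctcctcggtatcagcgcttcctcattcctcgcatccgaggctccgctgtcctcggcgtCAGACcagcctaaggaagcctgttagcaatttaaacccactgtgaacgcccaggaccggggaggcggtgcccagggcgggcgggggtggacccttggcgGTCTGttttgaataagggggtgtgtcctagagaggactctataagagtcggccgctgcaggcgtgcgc
Id4: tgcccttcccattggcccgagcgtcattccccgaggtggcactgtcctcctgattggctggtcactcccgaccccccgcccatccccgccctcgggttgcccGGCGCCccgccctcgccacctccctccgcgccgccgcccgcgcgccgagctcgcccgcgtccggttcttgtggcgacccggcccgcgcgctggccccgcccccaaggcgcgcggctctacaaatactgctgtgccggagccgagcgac

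GGCGCC was found once in the Id2 and Id4 windows and CAGAC at 2 places in the Id3 window. Of all 32851 windows of this length, 9.59% held GGCGCC and 42.2% held CAGAC. Among the 40 signalling genes with a window, 27.5% and 45.0% did so in any of their windows. The former shares are of windows and the latter of genes, so they are not like for like and give no enrichment.

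Genes of the pathways outside the name rule were read from 4 lists. Over all genes tested, the median was -0.16 between Meis1-high and Meis1-low and -0.08 between Meis1-high and Meis1-negative. Of 24 extracellular modulators and co-receptors, 20 were tested, with 14 higher and 6 lower in Meis1-high than in Meis1-low (median 0.80). At an unadjusted p under 0.05, 5 were higher and 4 lower, 45% of the 20 against 12.9% of all genes (4.58% higher and 8.34% lower). Rgma, a BMP co-receptor, had levels of 4.18 and 3.23 in Meis1-high, against 1.60 and -0.42 in Meis1-low, a difference of 3.12 ± 0.82 (adjusted p = 0.259), and lay 2.86 ± 0.82 above Meis1-negative (adjusted p = 0.350; 2.94 without Meis1-negative replicate 1). With normexp correction Rgma passed in both comparisons (2.51, adjusted p = 0.00312, and 2.43, adjusted p = 0.00205), among 237 and 308 of all 18219 genes. Cer1, which encodes the secreted antagonist cerberus, was well above background on both arrays of Meis1-low alone among the gates. It was thus tested only through Meis1-low, and the filter largely set its side. Its bounds were 1.78-fold over Meis1-high (adjusted p = 0.275) and 2.34-fold over Meis1-negative (adjusted p = 0.482; 2.87-fold without Meis1-negative replicate 1). Ltbp3, which binds latent TGF-beta, was 2.88 ± 0.86 higher in Meis1-high than in Meis1-negative (adjusted p = 0.350; 1.69 without Meis1-negative replicate 1).

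The 6 other ligands of the family had a median of -2.04 between Meis1-high and Meis1-low, with 4 lower. Nodal, the embryonic patterning ligand, differed by -2.01 ± 0.84 (adjusted p = 0.381) and Mstn, which encodes myostatin, by -2.81 ± 1.26 (adjusted p = 0.413). On Meis1-high replicate 1 and Meis1-negative replicate 1, both lay below the lowest signal well above background, as did Lefty1, another of these ligands. All of these were thus tested only because both Meis1-low arrays were well above background. Their side in the count and median was largely set by that filter. With normexp correction the differences were -0.45 for Nodal and -0.56 for Mstn. Of 14 intracellular regulators, 12 were tested, with a median of 0.30. Ski, a co-repressor of Smads, was 1.86 ± 0.68 higher in Meis1-high than in Meis1-low (adjusted p = 0.330).

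Of 10 other transcripts known to follow these pathways, 9 were tested. In Meis1-high, 8 were higher and 1 lower than in Meis1-low (median 0.86), and 9 of 9 were higher than in Meis1-negative (median 1.55; 8 of 9 and 1.21 without Meis1-negative replicate 1). Atoh8, a transcription factor gene induced by BMP, was 2.55 ± 0.84 higher than in Meis1-low (adjusted p = 0.297) and 2.48 ± 0.84 higher than in Meis1-negative (adjusted p = 0.393; 2.35 without Meis1-negative replicate 1). Tgfbi, named for its induction by TGF-beta, was 2.35 ± 0.79 higher than in Meis1-low (adjusted p = 0.302) and 2.53 ± 0.79 higher than in Meis1-negative (adjusted p = 0.366; 1.68 without Meis1-negative replicate 1). It too passed in both with normexp correction (2.07, adjusted p = 0.0217, and 2.13, adjusted p = 0.0122), among the same 237 and 308 genes.

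Markers of other cells also differed in level between Meis1-high and Meis1-low, with no gene past the test. Of 11 fibroblast and pericyte markers tested, 7 were higher and 2 lower in Meis1-high without overlap (22.2% and 31.4% of all genes), with a median of 0.95. Their summed scaled signal was 158.0 and 101.8 in Meis1-high cells, 79.7 and 75.4 in Meis1-low, with 49.96 and 99.5 in Meis1-negative. Of the 12 listed, 10 to 12 were well above background on each array, and the defining marker Pdgfra was so on 1. All 9 dendritic cell and macrophage markers tested were lower in Meis1-high (median -1.85), with sums of 13.7 and 14.1 in Meis1-high cells, 50.8 and 48.0 in Meis1-low, against 7.39 and 41.9 in Meis1-negative. Of the 11 listed, 5 and 7 were well above background in Meis1-high cells, 9 and 10 in Meis1-low, with 6 and 11 in Meis1-negative. Of 8 pan-leukocyte markers, 7 were lower in Meis1-high, 6 of them without overlap (31.4% of all genes), with a median of -1.05 and the sums given beside Tgfb1. Of 8 cortical TEC markers, 5 were higher in Meis1-high than in Meis1-low (median 1.12), and of 8 medullary TEC markers, 3 (median -0.69). The part of these cells in the differences of the signalling genes was not tested.

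Several probes for a gene gave a check within the arrays. Of 17 genes with at least 2 probes that passed the filter, 13 had all their probes on the same side of 0 when Meis1-high was compared with Meis1-low. The count was 12 for Meis1-high with Meis1-negative and 14 for Meis1-low with Meis1-negative. Both probes of Id1, Id2, Id4, Bmp7 and Bmpr1a, and all 3 of Bmpr2, lay higher in Meis1-high in the first 2 of these comparisons. Acvr1c, Smad1, Smad3 and Smad4 had probes on both sides between Meis1-high and Meis1-low.

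**Figure D5:**
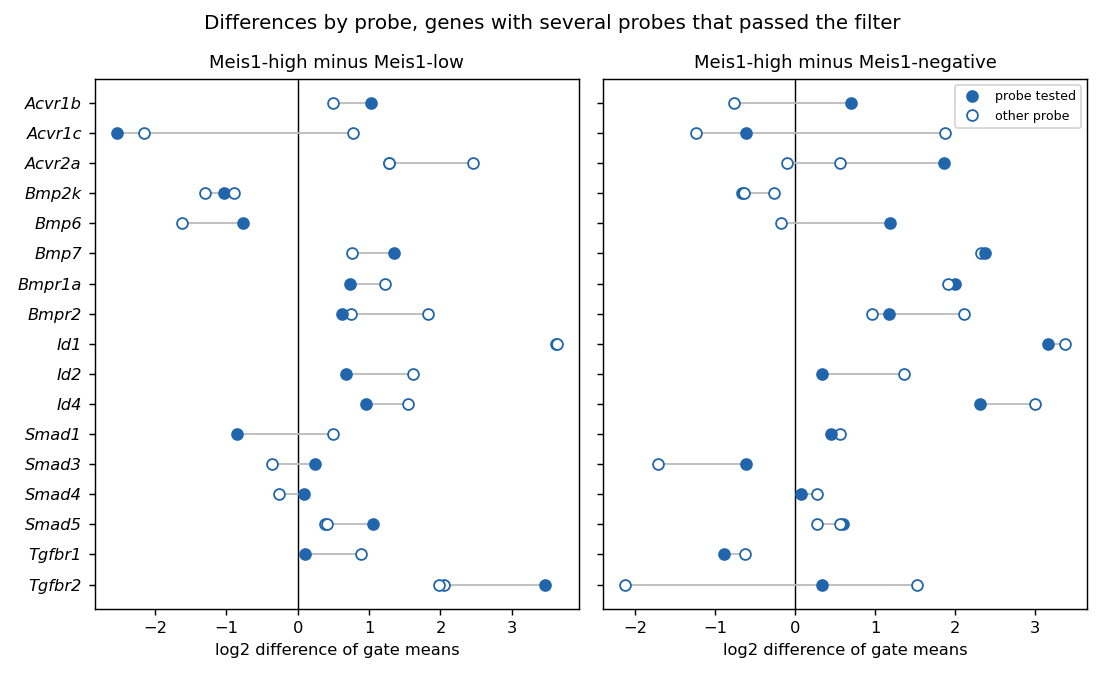
Log2 differences of gate means for each probe of the 17 genes with several probes that passed the filter, for Meis1-high minus Meis1-low and Meis1-high minus Meis1-negative (panels). Filled points are the probes used in the tests and open points other probes of the gene; the Id1 probes lie together near 3.6 in the left panel, and the Acvr1c probes lie on both sides of 0 in both panels.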

How the data were processed

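Per the labels' protocols, 10 ng of RNA from each of 6 sorted pools was amplified with WT-Ovation Pico, labelled with Cy3 and hybridised to a one-colour Agilent array. Per the file headers, the deposited intensity values come from Agilent Feature Extraction 9.5.3.1 after its background subtraction and are not scaled between arrays. The authors also deposited a value table on the log2 scale. Its columns correlated at 0.9999 with the scanner signals once these were scaled and centred by probe, and it served as an alternative.

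Control and outlier spots were left out, spots of a probe were averaged, and log2 values were set relative to the 75th percentile of their array. A probe was well above background where most of its spots carried the software's mark, which is 13 times the background SD. Probes marked on both arrays of any gate were tested, with the probe of highest mean standing for its gene. RefSeq updated the names of 26690 probes by accession, 105 by a listed accession, 5122 by symbol and 929 by synonym, while 8328 kept the name in the files. The comparisons used limma 3.58.1 in R 4.3.3 with 1 mean per gate over the 6 arrays (residual degrees of freedom 3, prior 4.28), and p-values were adjusted by Benjamini-Hochberg over 18219 genes. A bound on a fold sets the mean of the bright gate against, on each dim array, the higher of the probe's own signal and the lowest signal well above background. Bounds rest on the scanner software's background subtraction, and some did not hold with normexp correction. Code was tested on simulated data. The p-values measure the spread between pools, which also holds slide and scan day, and not that between animals.

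The members, roles and lists were chosen with earlier results of these data known. Array values are given for the 8 members of smallest p in each comparison and for a fixed set. Gdf9, Gdf15, Chrd, Inhbb, Smad5, Acvr1, Acvr1b, Acvr1c, Tgfbr3 and Bmp6, and further comparisons of members in those sets, were added after their values were seen. From each pathway list, the genes named are among the 2 of smallest p in a comparison. A gene that this would also name is not reported here. Replicate number, slide and scan day form a single block. Replicate differences of pairs of gates correlated at 0.209, 0.128 and 0.125, which takes the numbers as pairs that share a slide, although the labels do not say that pools share animals. The other settings tried were normexp (offset 50), scaling by quantiles or the median, other filters or none, a floor on dim signals, the replicate block, other ways to join probes, array weights, a trended robust prior, the authors' table, outlier spots left in, the compared gates alone, and single arrays left out. No column lay outside the 6 samples. Promoter windows come from RefSeq on GRCm38.p6. Plots used Python 3.11.15, pandas 2.3.3 and matplotlib 3.10.9.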

Additional observations from a re-analysis of the deposited data

How the results depend on the processing

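Of 89 differences named for single genes, 81 kept their sign in all 20 other settings run. With normexp background correction, Nog turned in Meis1-high minus Meis1-low (-0.060) and Tgfb1 in Meis1-low minus Meis1-negative (0.060). With means of probes, Tgfbr2 in Meis1-high minus Meis1-negative was -0.090. With single arrays left out, 5 further differences turned, each of them without Meis1-negative replicate 1. In Meis1-high minus Meis1-negative these were Inha (-0.060 to 1.33) and Id2 (-0.73 to 1.39, and -0.12 without Meis1-high replicate 2). In Meis1-low minus Meis1-negative these were Bmpr1b (-0.21 to 4.00), Inhba (-0.87 to 3.53) and Smad3 (-1.88 to 0.17). The cause was not tested.

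Genes called at an adjusted p under 0.05 went from 0 to 237 in Meis1-high minus Meis1-low, 308 in Meis1-high minus Meis1-negative and 130 in Meis1-low minus Meis1-negative with normexp correction. Of the 44 signalling genes Id1 was called so, in the first 2 and in the F test, and of the other pathway genes named, Rgma and Tgfbi were called in the first 2. Median scaling gave 78 and 14 genes in the comparisons with Meis1-negative and moved the median of all genes there by -0.14 and -0.13. The floor on dim signals gave 21 and the trended prior 4 in Meis1-high minus Meis1-negative. Leaving out single arrays gave 0 to 985 and 0 to 1346 genes in the comparisons with Meis1-negative, with 0 to 3 and 0 to 5 signalling genes, and 0 to 4 in the F test. The highest values came without Meis1-negative replicate 2.

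The median difference of the signalling genes between Meis1-high and Meis1-low, 0.31, was 0.061 with normexp correction, 0.46 with a filter on 4 arrays or the floor, 0.53 over every probe, and 0.24 to 0.52 with single arrays left out. Left-out arrays moved it from 0.17 to 1.23 in Meis1-high minus Meis1-negative and from 0.090 to 1.05 in Meis1-low minus Meis1-negative. The replicate block changed no call, with 0 genes called in each comparison. With 2 arrays per gate and many ligands near background, precision and signal limit what could be called.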

Other observations

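Bmp4 and Smad6 were near background and followed the slide. On slide 2 Bmp4 was well above background in every gate (-2.78, -3.18 and -2.98 in Meis1-high, Meis1-low and Meis1-negative), and on slide 1 in none. Smad6 was higher on slide 2 than on slide 1 in each of these gates, by 1.28, 1.60 and 2.07. The other genes that were not tested give no order between gates.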
